A study of Mus musculus with 6 samples.

Results

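A set of 10 genes of neuropeptide processing and dense-core granules were followed through 6 mouse brain tumor libraries: the prohormone convertase genes Pcsk1 and Pcsk2, the convertase inhibitor gene Pcsk1n, the carboxypeptidase gene Cpe, the granin genes Chga, Chgb, Scg2, Scg3 and Vgf, and the neuropeptide gene Npy. They are 10 of the 24537 rows of the deposited count table, and all 10 were found there by symbol. The genes were chosen by their role and with their count values in these 6 libraries in view, Pcsk2 among the known differences. Their difference between the groups is therefore a description: no p-value is given for any of them, and nothing is read from how many pass a threshold.

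The tumors were made in CD-1 IGS mice by in utero electroporation, in which DNA is injected into the embryonic brain and driven into cells by an electric pulse. All 6 carried PdgfraD482V, a mutant receptor of platelet-derived growth factor, and DNp53, a dominant-negative p53. Libraries titled FOXR2 (n = 3) also received FOXR2, a forkhead transcription factor, and libraries titled Control (n = 3) did not. The sources used here give neither the age at collection nor the promoters of the constructs, and no label says that the 3 tumors of a title came from separate animals, so a p-value measures only the spread between these samples. The authors' sample sheet puts each of the 6 libraries in the other group. Groups follow the titles here, and values are listed for replicates 1, 2 and 3 of each title. Each direction reverses should that sheet be correct.

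The libraries held 13429489 to 17927025 counts of poly(A) RNA, and 3 counts corresponded to 0.174 to 0.219 CPM (counts relative to library size, adjusted by TMM factors). Xist and Y-linked counts read 3 libraries as male (FOXR2 replicates 1 and 3, Control replicate 1) and 3 as female (FOXR2 replicate 2, Control replicates 2 and 3), so sex was unequally spread over the titles. Among marker lists, 9 neuron markers summed to 771 to 921 CPM in the libraries titled FOXR2 and to 320 to 399 in those titled Control. Gap43 alone gave 429.3 to 671.9 CPM of the former and 160.5 to 236.1 of the latter. Of the 9, 5 were higher in all 3 libraries titled FOXR2, while 2, Nefl and Nefm, were lower in all 3. Nefl was nearly equal in FOXR2 replicate 1 and Control replicate 2, at 35.04 CPM in both. Markers of immature neurons summed to 693 to 957 CPM in the libraries titled FOXR2 and to 252 to 496 in those titled Control. Among them Tubb3 and Elavl3 overlapped between the titles, and Nhlh1 had 0 counts in every library. Elavl3 had 173 CPM in Control replicate 3, above the 113 and 89.8 in FOXR2 replicates 1 and 3. The sum of 7 microglia markers was 730 CPM in FOXR2 replicate 2 and 1.25 to 3.48 in the other 5 libraries. All 6 pituitary markers stayed under 3 counts in every library, as did Th, Dbh and Pnmt, which define catecholamine cells. The markers of oligodendrocyte precursors summed to 4460 to 7450 CPM, Pdgfra, which the constructs supply, included.

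Neuropeptides are made as long precursors that are sorted into dense-core granules. There the convertases PC1/3 (Pcsk1) and PC2 (Pcsk2) cut them after pairs of basic residues, and carboxypeptidase E (Cpe) trims the ends that are left. Granins are acidic proteins that help to form the granule and are themselves cut into peptides, and proSAAS, the product of Pcsk1n, inhibits PC1/3. In the brain these genes are used mostly by neurons and neuroendocrine cells, and Cpe and Scg3 also by astrocytes.

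The sequences before the transcript start are shown for 5 of the genes, because several granule genes are known targets of cAMP signaling through the element TGACGTCA. Vgf and Cpe had no entry in the RefSeq promoter table (GRCm38.p6), which holds 250 bases before and 50 bases after a start. The element could thus be looked for only in the other 8 of the 10 genes. TGACGTCA, read on both strands (it is its own reverse complement), was present in 3 of these 8, in Scg2, Chgb and Pcsk1, and in 1.79% of all 32851 promoters in the table. The shorter TGACGT, which overlaps it, was present in Chga as well and in 7.51% of all promoters. The element began 68, 72 and 78 bases before the start in Scg2, Chgb and Pcsk1. Each line gives the 120 bases before the start, 5′ to 3′ on the gene's strand, with TGACGTCA in capitals. Pcsk2 and Scg3 are shown beside them because these letters do not occur in their windows and both were higher in all libraries titled FOXR2. Pcsk1n, Chga and Npy lack the 8 letters as well and Chgb holds them, and the groups overlapped for all of these. Of these, Npy, without the element, had a fitted difference below 0, as did Chgb, which holds it. A link between the element and the direction was not tested. The tabulated starts of Pcsk1 and Scg3 lie inside the annotated gene. A match of letters is a description and not a binding site.
Scg2, chr1:79440027-79440146, minus strand: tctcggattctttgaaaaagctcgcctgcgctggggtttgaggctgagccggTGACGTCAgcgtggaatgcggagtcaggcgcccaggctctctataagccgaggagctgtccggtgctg
Chgb, chr2:132781522-132781641, plus strand: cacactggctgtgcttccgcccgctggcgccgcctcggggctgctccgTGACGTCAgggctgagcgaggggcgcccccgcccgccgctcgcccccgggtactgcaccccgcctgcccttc
Pcsk1, chr13:75089737-75089856, plus strand: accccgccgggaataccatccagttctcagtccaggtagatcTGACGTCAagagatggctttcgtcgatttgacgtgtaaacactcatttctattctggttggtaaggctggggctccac
Pcsk2, chr2:143546013-143546132, plus strand: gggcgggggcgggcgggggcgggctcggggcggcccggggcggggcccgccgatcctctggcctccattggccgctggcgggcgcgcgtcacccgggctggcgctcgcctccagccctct
Scg3, chr9:75684057-75684176, minus strand: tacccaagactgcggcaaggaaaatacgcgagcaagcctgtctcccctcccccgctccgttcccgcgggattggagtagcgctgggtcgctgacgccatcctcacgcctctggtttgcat
The share of G and C in these stretches was 60.8% for Scg2, 78.3% for Chgb, 50.8% for Pcsk1, 85.0% for Pcsk2 and 62.5% for Scg3. TTCAGCACC, the left part of the element bound by the repressor REST, was present in the Scg2 window alone among the 8 and in 0.371% of all promoters.

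The 10 genes did not move as a group. Pcsk2 and Scg3 were higher in all 3 libraries titled FOXR2 than in any titled Control, Vgf and Scg2 were lower in all 3, and the groups overlapped for Pcsk1n, Cpe, Chga, Chgb and Npy. Of the 9 genes that passed the filter on low counts, 5 had a fitted log2 fold change (titled FOXR2 minus titled Control, edgeR) above 0 and 4 below 0, with a median of 0.04, where the median over all 13101 tested genes was 0.01. Groups that do not overlap were found in 30.3% of all tested genes, 13.1% higher and 17.2% lower. By edgeR's quasi-likelihood test with Benjamini-Hochberg adjustment over all genes, 1 of the 9, Pcsk2, was called higher and 0 lower, beside 0.908% and 1.38% of all tested genes, or 2.29% in either direction. An unadjusted p under 0.05 was found for 2 higher and 2 lower genes, beside 11.9% and 13% of all tested genes, or 24.9% in either direction. DESeq2 called 2 higher and 2 lower, beside 7.3% and 7.34% of the genes it gave an adjusted p, or 14.6% in either direction. Because the list was drawn up with this contrast known, nothing is read from these counts.

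**Figure D1:**
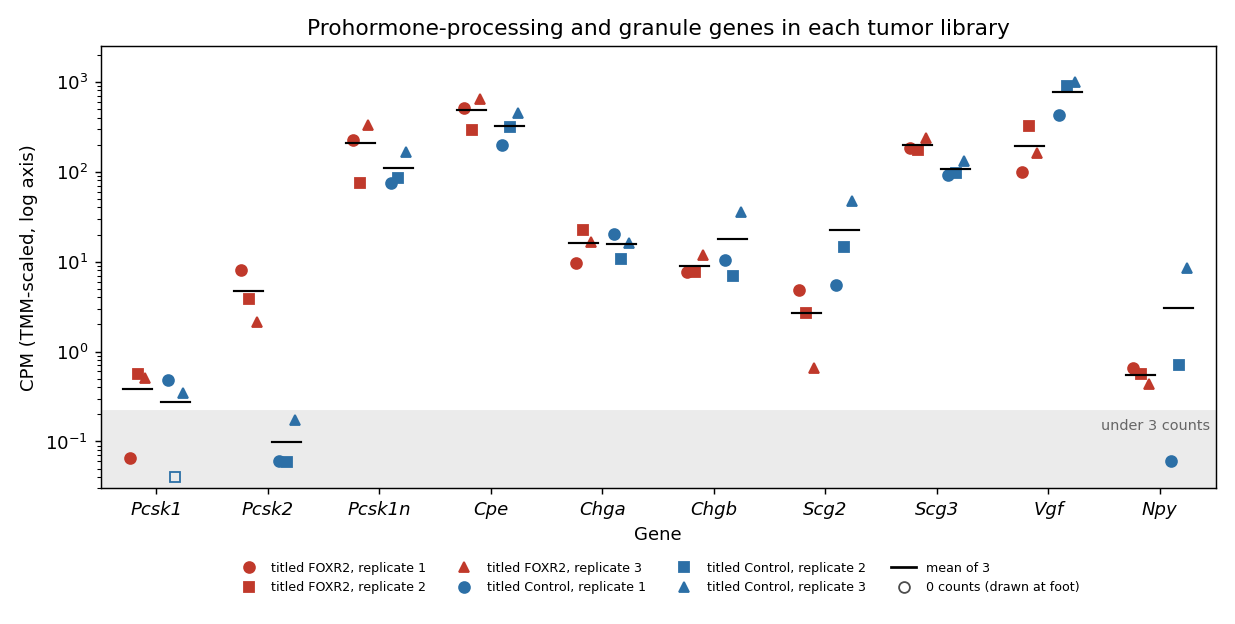
Levels of the 10 genes in each library, in TMM-scaled CPM on a log axis, with red points for libraries titled FOXR2, blue for those titled Control, a marker shape for each replicate and a bar at the mean of 3; the grey band lies under 3 counts at the shallowest depth. Pcsk2 lies inside this band in all libraries titled Control, and Vgf and Scg2 are lower in all libraries titled FOXR2.

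The convertase genes were scarce. Pcsk2, which encodes the convertase PC2, had 123, 61 and 29 counts under the FOXR2 title, against 1, 1 and 3 counts under the Control title. In CPM this was 8.03, 3.86 and 2.12 CPM against 0.0600, 0.0596 and 0.174 CPM. The libraries titled Control were at or under the level of 3 counts, while the lowest library titled FOXR2 lay far above it. The groups summed to 213 and 5 counts, a depth-scaled ratio of 48.1 with a 95% exact counting interval of 20.3 to 150. The interval covers counting error only, not the spread between tumors. The fitted log2 fold change was 5.46 ± 0.78 (SE) and depends on the few counts in the libraries titled Control. Pcsk2 passed the filter on low counts through the libraries titled FOXR2 alone. Among the libraries titled FOXR2, replicate 1 had 8.03 CPM and replicate 3 had 2.12, so the gene also varied widely within the title. In replicate 1 the 5 markers of GABA neurons summed to 48.0 CPM, against 3.12 to 9.49 in the other 5 libraries, but Gad1 alone gave 45.2 of this. Gad2 was at 0.457 CPM there, below its 1.202 in FOXR2 replicate 2, and Slc32a1 had 5 counts.

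Pcsk1, which encodes PC1/3, was barely detected. It had 1, 9 and 7 counts under the FOXR2 title, against 8, 0 and 6 under the Control title. This gene failed the filter on low counts. The summed counts were 17 and 14, a ratio of 1.37 with a counting interval of 0.637 to 3.01, so no difference was detectable at this depth. The 0 counts in Control replicate 2 allow up to 0.179 CPM.

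Pcsk1n, which encodes the inhibitor proSAAS, was abundant and varied within each title. It stood at 222, 74.5 and 329 CPM under the FOXR2 title, against 75.0, 84.1 and 167 under the Control title. FOXR2 replicate 2 was the lowest of all 6 libraries, so the groups overlapped. The means were 209 ± 128 and 109 ± 50.5 CPM (SD, n = 3 each), and the fitted log2 fold change was 0.94 ± 0.54 (SE).

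Cpe, the carboxypeptidase gene, had the highest level per kilobase of the processing genes among the 10. It had 508, 291 and 645 CPM under the FOXR2 title, against 199, 317 and 454 under the Control title. The highest library was FOXR2 replicate 3 and the lowest Control replicate 1, with the other 4 intermixed. Its fitted log2 fold change was 0.57 ± 0.38 (SE). As with Pcsk1n, FOXR2 replicate 2 had the lowest value of its title, and this is the library with the microglia markers, whose part in these values was not tested.

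The granins split. Vgf, whose precursor is cut into several secreted peptides, had the highest level per kilobase of the 5 granins in the libraries titled Control. It had 423, 905 and 1001 CPM under the Control title, against 98.9, 324 and 162 under the FOXR2 title. The highest library titled FOXR2 lay below the lowest titled Control. Means were 195 ± 116 and 776 ± 310 CPM (SD, n = 3 each), with a fitted log2 fold change of -1.99 ± 0.50 (SE).

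Scg2, the precursor of secretoneurin, lay on the same side at a much lower level. It stood at 4.83, 2.66 and 0.657 CPM under the FOXR2 title, against 5.46, 14.7 and 47.4 under the Control title. The groups did not overlap, but FOXR2 replicate 1 and Control replicate 1 were close, at 74 and 91 counts. Its fitted log2 fold change was -3.04 ± 0.94 (SE) with all libraries and -1.88 without Control replicate 3, which held most of the counts. Scg2 spanned a 72.2-fold range over the 6 libraries.

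Scg3, a granin that binds other granins and cholesterol at the granule membrane, lay on the opposite side. It had 182, 176 and 239 CPM under the FOXR2 title, against 91.5, 96.3 and 130 under the Control title. The groups did not overlap, and the 2.62-fold range over the libraries was among the narrowest of the 10 genes. Its fitted log2 fold change was 0.91 ± 0.22 (SE), from means of 199 ± 35.0 and 106 ± 21.0 CPM (SD, n = 3 each).

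Chga, the chromogranin A gene and a standard marker of neuroendocrine cells, was intermixed between the titles. It stood at 9.59, 22.2 and 16.6 CPM under the FOXR2 title, against 20.2, 10.8 and 16.2 under the Control title. The fitted log2 fold change was 0.04 ± 0.38 (SE), an estimate too wide to show that the titles are equal.

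Chgb, the chromogranin B gene, was set apart by 1 library. It had 7.57, 7.59 and 11.97 CPM under the FOXR2 title, 10.4 and 6.97 in Control replicates 1 and 2, and 35.6 in Control replicate 3. The fitted log2 fold change was -0.97 ± 0.61 (SE) with all libraries and 0.06 without Control replicate 3.

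Npy, which encodes neuropeptide Y, was likewise present mainly in Control replicate 3. This library had 145 counts (8.42 CPM), while FOXR2 replicates 1, 2 and 3 had 10, 9 and 6 counts and Control replicates 1 and 2 had 1 and 12. The fitted log2 fold change of -2.45 ± 1.36 (SE) became 0.51 without Control replicate 3. Control replicate 3 held the highest level of 4 of the 10 genes, Scg2, Chgb, Vgf and Npy, and the lowest of 0. In that library markers of mature oligodendrocytes summed to 3390 CPM, against 4800 in FOXR2 replicate 2 and 186 to 1540 in the other 4, and neuron markers to 397. Their part in these levels was not tested, and in bulk tumors fewer cells of a type and less RNA per cell cannot be told apart.

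Scaled per kilobase of the longest coding transcript (GENCODE vM21), the make-up of the 10 transcripts differed between the titles. Vgf made up 44.9%, 56.7% and 46.9% of the summed level per kilobase under the Control title and ranked first there. Under the FOXR2 title its share was 7.50%, 30.3% and 9.12%, and Cpe ranked first with 51.6%, 36.4% and 48.6%. Scg3 held 16.4%, 19.6% and 16.0% under the FOXR2 title, against 11.5%, 7.17% and 7.24% under the Control title. Within each library the level of Vgf per kilobase was 0.458, 1.55 and 0.569 times that of Scg3 under the FOXR2 title, against 3.89, 7.91 and 6.48 times under the Control title. This ratio needs no scaling between libraries. Vgf was already lower and Scg3 higher in all libraries titled FOXR2, so the ratio had to separate the titles and adds no support. Pcsk2, Pcsk1 and Npy together never reached 3% of the sum.

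**Figure D2:**
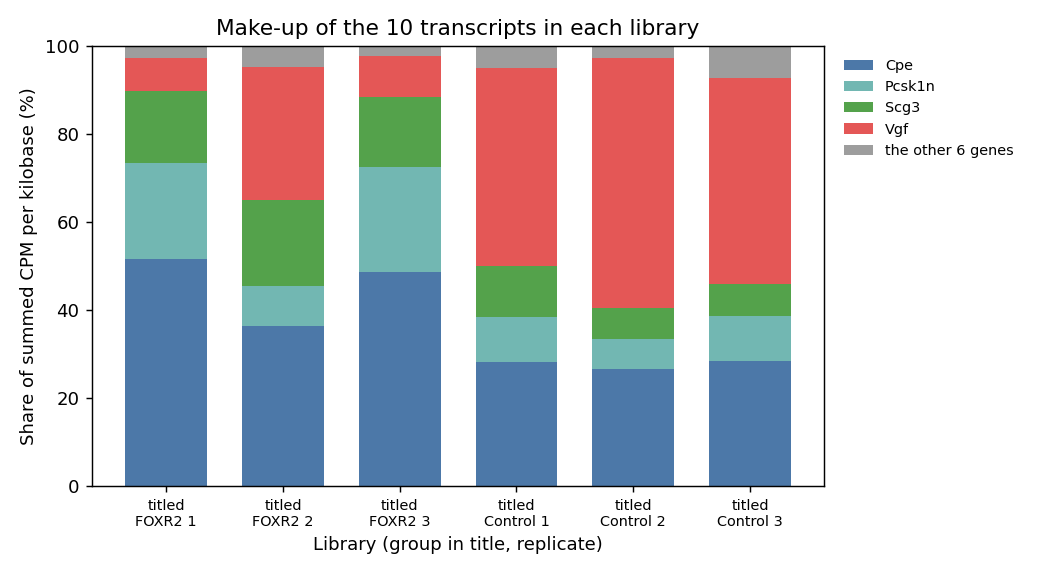
Share of each transcript in the summed CPM per kilobase of the 10 genes, one bar per library, with the other 6 genes pooled in grey. Vgf takes 44.9% to 56.7% in the libraries titled Control and 7.50% to 30.3% in those titled FOXR2, where Cpe is the largest share.

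Scg5, which encodes the PC2 chaperone 7B2, was present at 122, 109 and 116 CPM under the FOXR2 title, against 81.8, 79.1 and 164 under the Control title. Its groups overlapped, with a fitted log2 fold change of 0.09 ± 0.30 (SE; edgeR adjusted p = 0.872).

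The 6 libraries can be split by sex. For Pcsk2, Scg3, Vgf and Scg2, whose groups do not overlap over all libraries, any split keeps the direction, so their values are given only as a description. In males Vgf stood at 98.9 and 162 CPM under the FOXR2 title and at 423 in Control replicate 1, and in females at 324 in FOXR2 replicate 2 and at 905 and 1001 in those titled Control. Scg3 stood at 182 and 239 against 91.5 CPM in males and at 176 against 96.3 and 130 in females. Of the 5 tested genes whose groups overlapped, Pcsk1n, Cpe, Chga and Npy lay on opposite sides in the sexes, and Chgb overlapped within both. With 1 library of a title in each sex, groups separate easily, and the share over all genes was not computed. Nothing about sex is therefore read from these genes. In males Pcsk1n had 222 and 329 CPM under the FOXR2 title and 75.0 in Control replicate 1, but in females 74.5 in FOXR2 replicate 2 and 84.1 and 167 in those titled Control. Cpe likewise had 508 and 645 against 199 CPM in males and 291 against 317 and 454 in females. Chga lay the other way, lower in males (9.59 and 16.6 against 20.2 CPM) and higher in females (22.2 against 10.8 and 16.2). Npy stood at 0.653 and 0.438 against 0.0600 CPM in males, where the last value is 1 count, and at 0.569 against 0.715 and 8.42 in females. Each sex holds 3 libraries and 1 of the titles once, so no test can be had within a sex, and the female library titled FOXR2 is the one with the microglia markers.

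**Figure D3:**
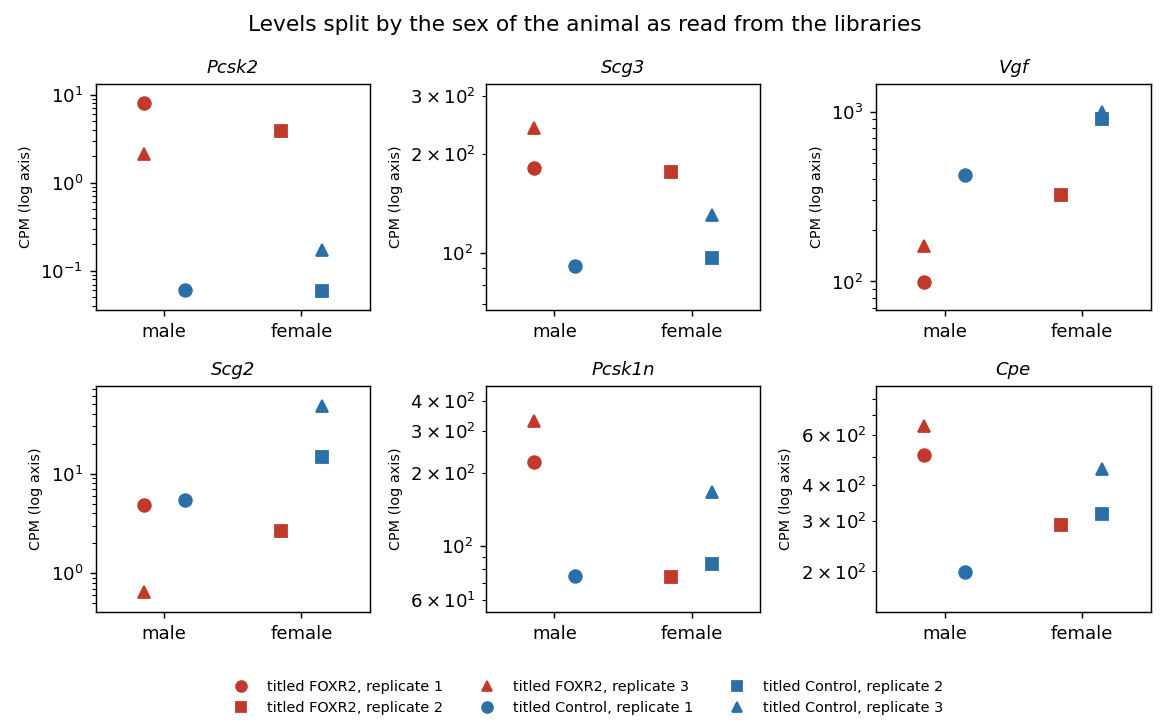
Levels of 6 of the genes in CPM on log axes, split by the sex read from Xist and Y-linked counts, with red points for libraries titled FOXR2 and blue for those titled Control. Pcsk1n and Cpe are higher in the male and lower in the female libraries titled FOXR2; for the other 4 genes, whose groups do not overlap, the same direction in both sexes follows from that.

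Profiles most like those of 4 of the genes were found by the root mean square difference of centred log2(CPM + 0.5) over the 6 libraries. Nearest to Pcsk2 among 12121 genes were Rbfox1, a neuronal splicing factor, at 0.208, Otud7a at 0.272 and Dpp6, a potassium channel partner, at 0.377. Rbfox1 had 6.003, 3.80 and 1.90 CPM under the FOXR2 title, against 0.180, 0.0596 and 0.232 under the Control title. As Rbfox1 was picked for this likeness, its difference carries no test. Under the Control title Pcsk2 had 1, 1 and 3 counts, and Rbfox1 lay near or under the level of 3 counts. That part of the likeness rests on values near the floor. Nearest to Vgf were Uckl1 at 0.238, Dnaja4 at 0.301 and Plk3 at 0.347. Nearest to Npy was Igf2 at 0.416, with 22.4 CPM in Control replicate 3 and 1.199 to 4.56 elsewhere, followed by Rnf208 and Ccl19. Pcsk1 was nearest to Wrb at 0.118, but its own profile rests on 0 to 9 counts a library.

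Other genes of the pathway were taken from lists made for this tissue and tested in the same fit. These lists were drawn up with earlier results of these data known, so their counts and medians are a description and not independent support. Cadps, which primes dense-core granules for release, was higher in the libraries titled FOXR2. It stood at 33.9, 33.2 and 28.7 CPM under the FOXR2 title, against 9.59, 12.99 and 8.31 under the Control title. The groups did not overlap, with a log2 fold change of 1.63 ± 0.25 (SE; edgeR adjusted p = 0.0388). Its adjusted p was 0.0516 to 0.133 when any 1 library was left out, with log2 fold changes of 1.504 to 1.85, and 0.120 with animal sex as a covariate, with a log2 fold change of 1.67.

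By edgeR, Cadps was the 1 call among 35 tested genes of granule biogenesis and release, of 40 listed, and 0 were called lower. Over all tested genes, edgeR called 0.908% higher and 1.38% lower. At an unadjusted p under 0.05, 7 of the 35 were higher and 0 lower, beside 11.9% and 13% of all tested genes, and DESeq2 called 4 higher and 0 lower, beside 7.3% and 7.34%. Of the 35, 24 lay above 0 and the list median was 0.31 (log2 fold change), where 50.7% of all tested genes lay above 0 with a median of 0.01. Groups did not overlap in 7 higher genes and 1 lower, beside 13.1% and 17.2% of all tested genes. Syt11, a synaptotagmin, stood at 794, 901 and 618 CPM under the FOXR2 title, against 444, 284 and 302 under the Control title, without passing the test (log2 fold change 1.17 ± 0.25, edgeR adjusted p = 0.0577). Ptprn2, a receptor phosphatase-like protein of the granule membrane, had 15.8, 13.4 and 10.9 CPM against 3.60, 6.97 and 4.94 (edgeR adjusted p = 0.0769). Other genes of the list overlapped between the titles. Ptprn had 13.1, 142 and 56.0 CPM against 24.5, 49.5 and 60.8, and Syt4 had 15.7, 776 and 179 against 174, 237 and 307. The list shares Snap25 with the neuron markers, of which Gap43, Syn1 and Syt1 were called higher in the libraries titled FOXR2. Nefl and Nefm had lower values in all 3, Nefl with FOXR2 replicate 1 and Control replicate 2 nearly equal. The part of neuronal content in the granule genes was not tested.

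No other processing enzyme or chaperone was called among 16 tested by edgeR, beside 0.908% higher and 1.38% lower over all tested genes. At an unadjusted p under 0.05, 0 were higher and 2 lower, the shares over all genes being 11.9% and 13%. DESeq2 called 0 higher and 1 lower, beside 7.3% and 7.34%. The list's median log2 fold change was 0.09. Pcsk4, a convertase gene known from germ cells, had 1.31, 1.14 and 1.53 CPM under the FOXR2 title, against 3.60, 3.81 and 8.02 under the Control title (log2 fold change -1.95 ± 0.47, edgeR adjusted p = 0.0700). Carboxypeptidase M (Cpm) had a log2 fold change of -1.81 ± 0.76 and Cpxm2 of -2.12 ± 0.94 (edgeR adjusted p = 0.197 and 0.214). The list's general convertase Furin lay between 21.1 and 32.2 CPM in all libraries, and Pam, which amidates peptides, between 48.2 and 117.

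Few other neuropeptide precursor transcripts were detected. Of 55 other neuropeptide precursor genes, 18 stayed under 3 counts in every library, 8 averaged at least 1 CPM and 6 passed the filter on low counts. By edgeR 0 of the 6 were called, 0 had an unadjusted p under 0.05, and DESeq2 called 0. Apelin (Apln) stayed at 14.7 to 24.2 CPM. The enkephalin precursor Penk had 31.3 CPM in FOXR2 replicate 2 and 35.0 in Control replicate 3 and 0.848 to 8.52 in the other 4. Neurotensin (Nts) had 64.7 CPM in FOXR2 replicate 3 and 0.131 to 7.15 elsewhere. Adrenomedullin (Adm) had 3.59, 8.48 and 3.28 CPM under the FOXR2 title, against 12.4, 18.6 and 6.10 under the Control title (log2 fold change -1.27 ± 0.54, edgeR adjusted p = 0.201), and neuromedin B (Nmb) 1.31 to 1.82 against 1.80 to 4.53. Calca, which encodes calcitonin and CGRP, was named after its values were seen: it had 213 counts in Control replicate 2 and 2 to 10 in the other libraries.

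**Figure D4:**
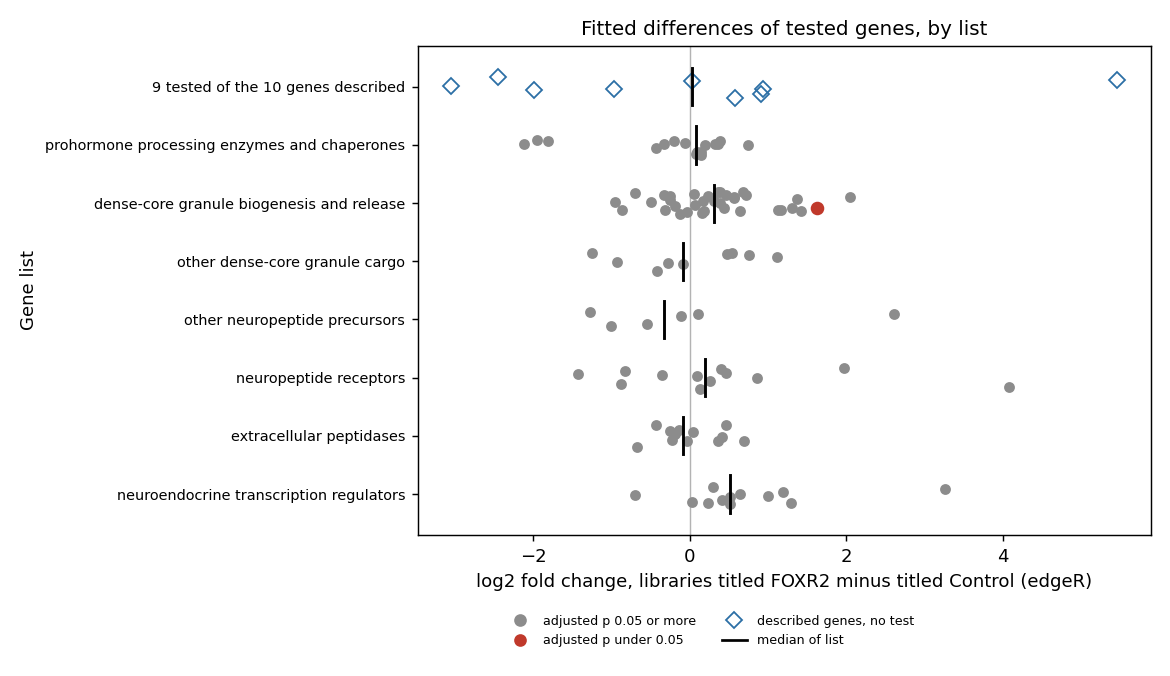
Fitted log2 fold changes (libraries titled FOXR2 minus titled Control, edgeR) of the tested genes of each list, with a bar at each list's median, red where the adjusted p was under 0.05 and open diamonds for the described genes, for which no p is given. Cadps, at 1.63, is the 1 red point, and the described genes spread from -3.04 to 5.46.

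Of 45 neuropeptide receptor genes, 12 passed the filter and 0 were called by edgeR. At an unadjusted p under 0.05, 3 were higher and 2 lower, beside 11.9% and 13% of all tested genes, and DESeq2 called 2 higher and 1 lower, beside 7.3% and 7.34%. The receptor for PACAP, Adcyap1r1, stood at 220, 120 and 125 CPM under the FOXR2 title, against 67.8, 69.3 and 119 under the Control title (edgeR adjusted p = 0.170). Of the endothelin receptors, Ednra stood at 8.42, 5.69 and 12.4 CPM against 2.16, 2.15 and 2.44, and Ednrb at 93.4, 126 and 104 against 160, 134 and 298 (edgeR adjusted p = 0.0515 and 0.152). The natriuretic peptide clearance receptor Npr3 had 7.90 CPM in FOXR2 replicate 1, 1.202 and 1.31 in FOXR2 replicates 2 and 3 and 0.120 to 0.298 in those titled Control (edgeR adjusted p = 0.0675). With 2, 5 and 3 counts under the Control title, Npr3 passed the filter on low counts through the libraries titled FOXR2 alone. Its p is therefore not read as support. Calcrl, the shared receptor of CGRP and adrenomedullin, had 13.4, 4.30 and 18.0 against 30.3, 35.3 and 30.1 CPM (edgeR adjusted p = 0.129). The neuropeptide Y receptor gene Npy1r had 1 to 17 counts a library.

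Among 12 tested transcription regulators of neuroendocrine genes, 11 lay above 0, their median being 0.52 on the log2 scale, where 50.7% of all tested genes lay above 0. Groups did not overlap in 5, all higher in the libraries titled FOXR2, beside 13.1% of all tested genes. By edgeR 0 were called, 3 were higher at an unadjusted p under 0.05, beside 11.9% of all tested genes, and DESeq2 called 3 higher, beside 7.3%. Prox1 stood at 30.9, 29.9 and 35.9 against 14.6, 20.6 and 13.01 CPM (edgeR adjusted p = 0.0723). Myt1l, a neuronal zinc finger factor, had 8.81 CPM in FOXR2 replicate 1 and 1.012 and 1.75 in FOXR2 replicates 2 and 3, against 0.240 to 0.536 in those titled Control (edgeR adjusted p = 0.0952). With 4, 9 and 7 counts under the Control title, Myt1l passed the filter on low counts through the libraries titled FOXR2 alone. Its p is therefore not read as support. Rest, the repressor of neuronal and granule genes, did not pass the test, at 7.69 ± 1.04 and 5.38 ± 0.864 CPM (SD, n = 3 each; edgeR adjusted p = 0.334). It was among the 5 without overlap, at 8.87, 7.28 and 6.93 against 5.34, 6.26 and 4.53 CPM. As the list holds this repressor too, its counts give no single direction of regulation.

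The remaining lists gave no call. Among 9 tested genes of other granule cargo the median log2 fold change was -0.08, and among 12 extracellular peptidases, which degrade peptides, it was -0.09. In both, 0 genes were called by edgeR or DESeq2 and 0 had an unadjusted p under 0.05. Neuroserpin (Serpini1) had 8.03, 6.20 and 7.88 CPM under the FOXR2 title, against 4.797, 3.34 and 4.94 under the Control title (edgeR adjusted p = 0.204). Nucb2, the precursor of nesfatin, had 11.8 ± 1.04 against 8.47 ± 0.713 CPM and Plat, tissue plasminogen activator, 127 ± 54.6 against 87.8 ± 14.2 (SD, n = 3 libraries a title), with edgeR adjusted p = 0.277 and 0.349. Of the peptidases, neurolysin (Nln), Dpp9 and Lnpep had log2 fold changes of 0.36, -0.43 and 0.47.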

How the data were processed

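Whole-number read counts per gene symbol for 6 libraries were deposited by the authors. Per the submitters' processing notes, TopHat and DESeq2 were used and the named build is hg19, which is human, while the table lists mouse symbols. Not given in the sources used here are the counting tool, its annotation and its strand setting, so reads of overlapping genes cannot be told apart. Per the labels' protocols, poly(A) RNA was sequenced as single reads of 51 bases from stranded libraries.

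The quasi-likelihood F test of edgeR 4.0.16 (R 4.3.3) was run on the counts (filterByExpr with a minimum count of 10, TMM factors, 3 against 3 libraries, no covariate, prior count 0.125). This tested 13101 of 24537 rows, and a gene was called at an adjusted p (Benjamini-Hochberg, over all tested genes) under 0.05. Standard errors are the log2 fold change over the square root of F. Intervals (95%, Clopper-Pearson) and the floor of 3 counts cover counting error only. On simulated counts with 200 changed genes, the FOXR2 against Control test, on 12962 genes, found 51.5% of 4-fold and 0% of 2-fold changes, and 3 of its 54 calls had not been changed.

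The 10 genes and all lists were chosen with earlier results of these data known. Named were the 10 genes, called members of each list and those with the smallest p up to 3, the 3 most abundant precursors and receptors, and the 3 nearest profiles among genes averaging at least 1 CPM. A gene taken by this rule is not reported here. Genes needed to state a list's or a library's limits are named outside this rule. All listed genes were matched, 1 by an older symbol (Tssc1). Alternatives were DESeq2 1.42.0, limma-voom (limma 3.58.1), RLE factors, total counts, no filter, the replicate number as a block, animal sex as a covariate and each library left out. Sequences are from RefSeq, GRCm38.p6.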

Additional observations from a re-analysis of the deposited data

How the results depend on the processing

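Pcsk2, Pcsk1n, Cpe and Scg3 kept a fitted log2 fold change above 0 and Scg2 and Vgf one below 0 in all 13 alternatives, with ranges of 4.83 to 6.11, 0.45 to 1.40, 0.31 to 0.91, 0.76 to 1.09, -3.73 to -1.88 and -2.57 to -1.63. For genes whose groups do not overlap the choice of genes fixes much of this. Npy was at -0.66 with animal sex as a covariate, -0.53 with limma-voom and 0.51 without Control replicate 3. Over all genes, DESeq2 called 916 higher and 921 lower, total counts 119 lower, and animal sex as a covariate 7 higher and 0 lower, where 2398 genes had an unadjusted p under 0.05. Leaving out 1 library gave 1 to 111 higher and 0 to 79 lower in edgeR, with 2202 to 3216 at an unadjusted p under 0.05.

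Replicate numbers do not pair the libraries (correlations of deviations of -0.0161, -0.241 and -0.0104 for numbers 1, 2 and 3). With the replicate number as a block edgeR called 0 genes higher and 0 lower, among them 0 of the 10 described and 0 of granule biogenesis and release, and 2652 genes had an unadjusted p under 0.05. Of the 10 genes DESeq2 called 2 higher and 2 lower, animal sex as a covariate 0 higher, and the fits without 1 library 0 to 1 higher. Among granule biogenesis and release genes DESeq2 called 4 higher, animal sex as a covariate 0, and the fits without 1 library 0. DESeq2 called 1 processing enzyme lower, 2 receptors higher and 1 lower, and 3 transcription regulators higher. Where calls were lost, the cause was not tested. The log2 fold change of Cadps stayed at 1.504 to 1.85 in these fits.

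Below-threshold genes changed sign in 4 cases: Nts without FOXR2 replicate 3 (-0.10), Apln without FOXR2 replicate 2 (0.053), and Penk without FOXR2 replicate 1 (0.019) or Control replicate 3 (0.72). Leaving out 1 library gave log2 fold changes of -0.10 to 3.21 for Nts, -0.30 to 0.053 for Apln and -4.10 to 0.72 for Penk. The median of other granule cargo was 0.60 without Control replicate 3. With the median in place of the longest coding transcript, chosen after seeing the data, Vgf held 48.3%, 60.1% and 50.4% in Control replicates 1, 2 and 3 and ranked first there as before. Depth limits Pcsk1, Npy and Pcsk2 in the libraries titled Control.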
